A study of Arabidopsis thaliana with 9 samples.

Results

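HSP22 (AT4G10250) and COR47 (AT1G20440) are 2 stress genes of Arabidopsis thaliana, the first for a small heat shock protein and the second for a dehydrin. They are represented by 1 probe set each, out of 22746 probe sets on the array. A probe set is a group of short DNA probes whose combined brightness, the signal, stands for the amount of 1 transcript. Both genes were selected on measured values of this experiment: in an earlier look at the same arrays they were the called members of the heat shock list and of the cold and abscisic acid list, both lower in cop1-4 than in wild type. The difference between cop1-4 and wild type is therefore described for them below and not tested.

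RNA came from whole seedlings of the Col-0 ecotype, aged 4 days, which had germinated and grown in darkness at 21 °C on plates with 1% sucrose. Of 3 genotypes, the first, cop1-4 BBX22-GFPox, is the cop1-4 mutant with a construct taken here to overexpress BBX22 fused to GFP, the second is cop1-4 itself, and the third is wild type. Each genotype had 3 biological replicates on 1 Affymetrix array each, 9 arrays in all. The labels name neither the promoter of the construct nor the number of transgenic lines. Transcripts of COP1 and BBX22 are not analysed here, which leaves the genotype labels unchecked.

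COP1 is a ubiquitin ligase that keeps light responses off in darkness, and seedlings that lack its function open and develop in the dark much as light-grown ones do. BBX22, a transcription factor with B-box zinc fingers, promotes such light responses and is itself a target of COP1. Small heat shock proteins are chaperones that bind unfolding proteins and hold them until ATP-driven chaperones can refold them. HSP22 belongs to the class that enters the endoplasmic reticulum, and its transcript is known for its strong rise in heat. Dehydrins are hydrophilic, largely unstructured proteins that gather in plant cells during cold, drought and late seed development, where they protect membranes and other proteins from loss of water. COR47, also called RD17, is an acidic dehydrin whose transcript is known to rise in cold, drought and abscisic acid. No sequence of either gene is shown, since none was in the material used here.

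Both transcripts were highest in wild type, lower in cop1-4 and lowest in cop1-4 BBX22-GFPox. HSP22 had signals of 32.7, 17.6 and 4.8 on the cop1-4 BBX22-GFPox arrays, of 47.7, 47.9 and 43.9 on the cop1-4 arrays and of 215.1, 208.3 and 209.9 on the wild type arrays (replicates 1, 2 and 3 in each). No array of any genotype overlapped with those of another, and the cop1-4 BBX22-GFPox arrays were the most spread. COR47 had signals of 6507.4, 5529.8 and 5219.6 on the cop1-4 BBX22-GFPox arrays, of 8928, 8396 and 8146 on the cop1-4 arrays and of 18257.4, 14450 and 17797.4 on the wild type arrays. Here too the genotypes did not overlap, and the wild type arrays were the most spread.

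**Figure D1:**
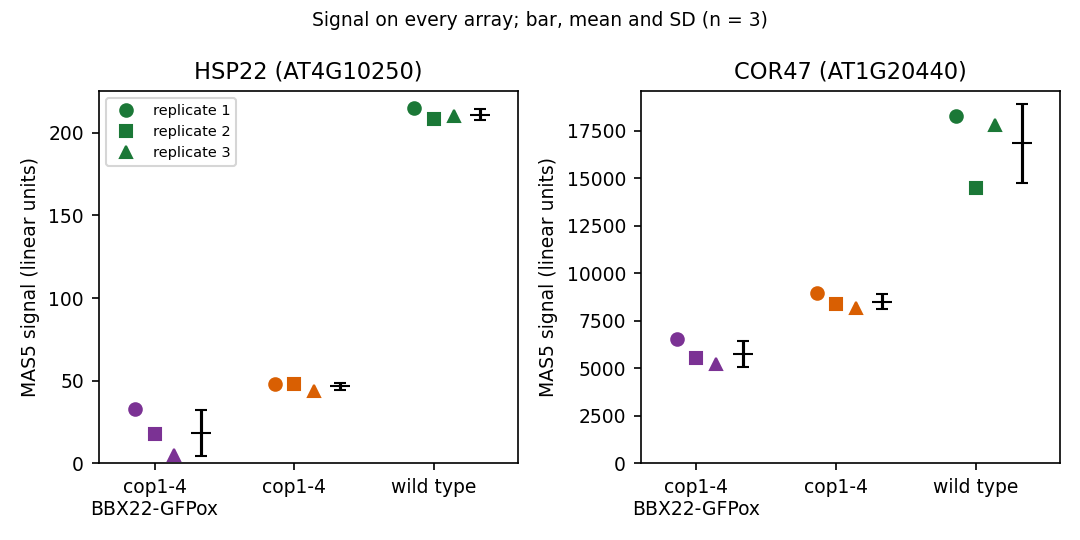
MAS5 signal (vertical axis, linear units) of HSP22 and COR47 on each of the 9 arrays, by genotype, with replicate 1 as circles, 2 as squares and 3 as triangles; black bars give the mean and SD (n = 3). HSP22 lies between 4.8 and 32.7 in cop1-4 BBX22-GFPox, between 43.9 and 47.9 in cop1-4 and between 208.3 and 215.1 in wild type, and COR47 is ordered in the same way.

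The mean signal of HSP22 was 18.4 ± 14.0 in cop1-4 BBX22-GFPox, 46.5 ± 2.25 in cop1-4 and 211 ± 3.56 in wild type (SD, n = 3 each). That of COR47 was 5752 ± 672 in cop1-4 BBX22-GFPox, 8490 ± 399 in cop1-4 and 16830 ± 2078 in wild type. The signals of the 2 probe sets are on separate scales and give no ratio between the transcripts. In whole seedlings, fewer cells that make a transcript and less of it per cell cannot be told apart.

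An order with every cop1-4 BBX22-GFPox array under every cop1-4 array, and every cop1-4 array under every wild type array, was uncommon among all probe sets. It was found for 178 of the 15922 probe sets that were bright enough to be tested, or 1.12%. The selection of HSP22 and COR47 fixed the part of the order between cop1-4 and wild type but not the place of cop1-4 BBX22-GFPox. Every cop1-4 BBX22-GFPox array lay under every cop1-4 array for 4.99% of tested probe sets, every cop1-4 array under every wild type array for 25.7%, and every cop1-4 BBX22-GFPox array under every wild type array for 24.6%.

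In cop1-4, HSP22 was at 22.0% of its wild type signal and COR47 at 50.4%, that is 4.54-fold and 1.98-fold lower. Differences were also taken on a log2 scale, after adding to each signal an offset of 24.5, the 20th percentile of all values, which shrinks differences between dim signals. On this scale HSP22 differed by −1.73 (standard error 0.259) between cop1-4 and wild type. COR47 differed by −0.98 (standard error 0.199). The selection favoured large differences here, so no interval is given. As a description of these arrays, 3.9% of tested probe sets had a more negative difference than HSP22 and 13.9% a more negative one than COR47. HSP22 stood further out than COR47 among the transcripts lower in cop1-4.

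Differences between cop1-4 and wild type were much alike in the 3 replicates. Between arrays of the same replicate number, HSP22 differed by −1.73, −1.69 and −1.78, and COR47 by −1.03, −0.78 and −1.13. The offset moved the value of the dimmer gene, HSP22, which was −2.18 without an offset and −1.10 with an offset of 98.2, the 40th percentile of all values. Neither setting turned its direction.

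The second comparison asked what the BBX22-GFPox construct changed in cop1-4 seedlings. It did not enter the selection of the genes, though it shares the cop1-4 arrays with the comparison that did. In cop1-4 BBX22-GFPox, COR47 was at 67.8% of the mean cop1-4 signal, or 64.1% to 72.9% by replicate number. HSP22 was at 39.5% of it, but this share is imprecise, at 68.6%, 36.7% and 10.9% by replicate number, with 2 signals under the 20th percentile of all values. On all 3 arrays both were lower than on any cop1-4 array. The test was limma's moderated linear model over all tested probe sets, two-sided, with Benjamini-Hochberg adjustment, and a transcript is called, and said to have risen or fallen, at an adjusted p under 0.05. Neither gene was called. HSP22 had passed the filter on dim probe sets (a mean log2 value of at least 6.24) through its wild type arrays: its mean was 6.47 over 9 arrays but 5.76 over the 6 compared here, all of them under that limit. The test of HSP22 is thus one between dim signals, and without any filter its adjusted p was 0.455. HSP22 had a log2 difference of −0.78 (standard error 0.259, 95% interval −1.37 to −0.19, unadjusted p = 0.0151, limma adjusted p = 0.42). COR47 had one of −0.56 (standard error 0.199, 95% interval −1.02 to −0.11, unadjusted p = 0.0199, limma adjusted p = 0.464). In the same comparison 2.69% of tested probe sets had a more negative difference than HSP22, and 5.80% a more negative one than COR47. An unadjusted limma p under 0.05 was found for 1194 of the 15922 tested probe sets.

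Calls in this comparison were few among all transcripts by the test above, 0.0188% of the tested probe sets having fallen and 0.283% having risen in cop1-4 BBX22-GFPox against cop1-4. By replicate number, HSP22 differed by −0.34, −0.78 and −1.22, and COR47 by −0.46, −0.60 and −0.64, each lower with the construct in all 3. The difference in HSP22 was the smallest in replicate 1. Over replicates 2 and 3 alone both genes were called, at −1.0 for HSP22 (limma adjusted p = 0.0109) and −0.62 for COR47 (limma adjusted p = 0.0052), a fit that knows only the spread of these replicates. Calls were common in that fit, where 1835 of the 15922 tested probe sets fell and 2032 rose. The call of HSP22 there rests on signals of 17.6 and 4.8 in cop1-4 BBX22-GFPox, under the offset. Array quality weights also led to both calls, in a fit where 1632 of the 15922 tested probe sets fell and 1878 rose. Over 18 alternatives for HSP22 and 19 for COR47 the limma adjusted p ranged from 0.00436 to 0.9998 and from 0.0052 to 0.9998. The HSP22 value itself ranged from −0.32 with the larger offset to −1.73 with none, so its size depends on the offset.

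The third comparison set cop1-4 BBX22-GFPox against wild type, which differ in both the construct and the mutation. In cop1-4 BBX22-GFPox, COR47 was at 34.2% of the mean wild type signal, or 29.3% to 38.3% by replicate number. HSP22 was at 8.7%, and at 15.2%, 8.45% and 2.29% by replicate number, a share that its dim signals leave imprecise. The log2 differences were −2.51 for HSP22 (standard error 0.259) and −1.54 for COR47 (standard error 0.199). They are not tested, since the wild type arrays were part of the selection. In 1.05% of tested probe sets the difference was more negative than in HSP22, and in 4.31% than in COR47. By replicate number, HSP22 differed by −2.07, −2.47 and −3.00, and COR47 by −1.49, −1.38 and −1.77.

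**Figure D2:**
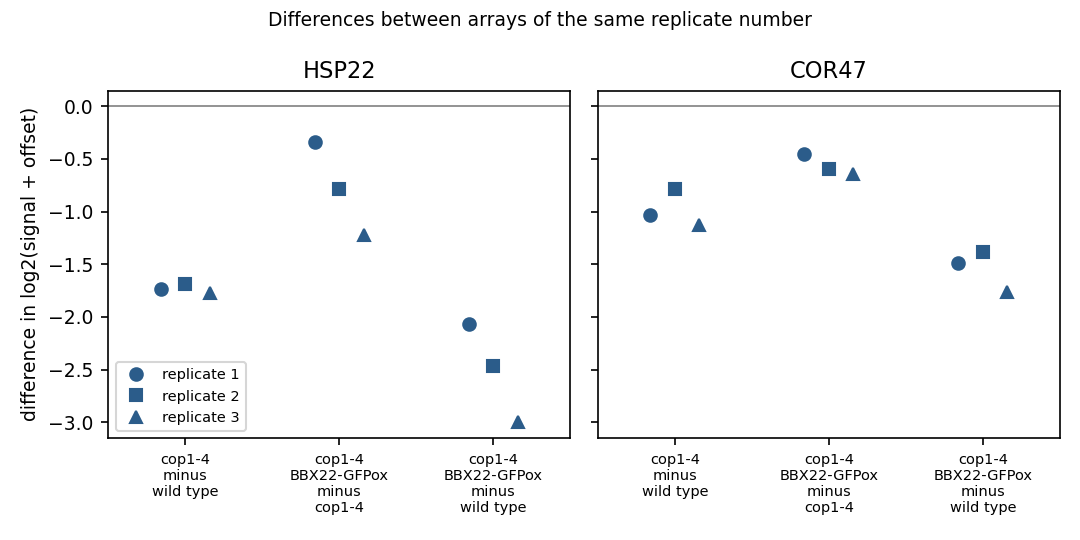
Difference in log2(signal + offset) between arrays of the same replicate number (vertical axis) for HSP22 and COR47 in the 3 comparisons of genotypes; the grey line marks 0. All points lie under 0, and the wide spreads are those of HSP22 in both comparisons with cop1-4 BBX22-GFPox, from −0.34 to −1.22 against cop1-4 and from −2.07 to −3.00 against wild type.

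Facts of the whole set of arrays bear on these values. In each genotype replicate 1 differed from the other two: across probe sets, replicates 2 and 3 correlated at 0.982 to 0.989, and replicate 1 with either at 0.816 to 0.926. On the log2 scale HSP22 was higher in replicate 1 than in replicates 2 and 3 by 0.70 in cop1-4 BBX22-GFPox, by 0.04 in cop1-4 and by 0.04 in wild type. COR47 was higher in it by 0.28, 0.11 and 0.19 in the same order. Over the genotypes the shifts were 0.26 for HSP22 and 0.19 for COR47, while the median absolute shift of tested probe sets was 0.44, so HSP22 in cop1-4 BBX22-GFPox was the value that moved most with replicate 1. The arrays carried a common scaling, with trimmed means of 494 to 496. The median log2 difference of all tested probe sets was −0.11 between cop1-4 and wild type, and 0.01 when arrays were scaled to a common median, where HSP22 stood at −1.63 and COR47 at −0.85. Markers of seedling tissues differed between genotypes, and not in 1 direction. Of 14 listed markers 6 had a probe set named here, none of their values was 0, and their summed signal was 1583 to 1967 in cop1-4 BBX22-GFPox, 1795 to 3480 in cop1-4 and 11167 to 18123 in wild type. In cop1-4 against wild type 2 of the 6 fell, and the sum in wild type was mostly theirs. PORB, which makes chlorophyllide in light and abounds in etiolated cotyledons, had signals of 1328.9, 2157.1 and 2029 in cop1-4 and 8669.1, 13371 and 15508.3 in wild type. In cop1-4 BBX22-GFPox PORB was at 1109.4, 678.1 and 558, without overlap between genotypes and in the order also seen for HSP22 and COR47. Its log2 difference between cop1-4 BBX22-GFPox and cop1-4 was −1.24 and was not called (limma adjusted p = 0.274). The seed oil body gene OLEO3 was at 45.6, 64.7 and 69.1 in cop1-4 and 2322.5, 2146 and 1959.6 in wild type. Its cop1-4 BBX22-GFPox signals of 98.9, 47 and 35.9 overlapped with those in cop1-4. Between cop1-4 and wild type the other 4 had positive log2 differences that were not called. These were 1.21 (EXPA7) and 0.63 (EXPA18) for root hair markers and 0.34 (SPCH) and 0.91 (FMA, also FAMA) for stomatal lineage markers. In replicate 1 they were 2.33, 0.45, −0.23 and 0.90 in this order, and 0.64, 0.72, 0.62 and 0.92 in replicates 2 and 3. Without wild type replicate 1 the difference of EXPA18 turned negative. That fit kept the low cop1-4 replicate 1 (64.3) but only wild type replicates 2 and 3 (403.1 and 373.9), so the shift of replicate 1 enters it. FMA rose in cop1-4 BBX22-GFPox against wild type (1.24, limma adjusted p = 0.0259). Whether these marker differences reflect the make-up of tissues, and what part that has in the values of HSP22 and COR47, was not tested.

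Other stress genes went in both directions. Lists of small heat shock proteins, other chaperones, heat shock transcription factors, endoplasmic reticulum folding genes, dehydrins, cold response genes and abscisic acid and drought genes held 183 loci, and 31 of them beside HSP22 and COR47 had a tested probe set with a single gene. A further 4 had a probe set too dim to be tested. Of the heat shock factor list (23 loci) and the abscisic acid and drought list (47 loci) no member had a probe set named here, which does not say that the array lacks them. Between cop1-4 and wild type 3 of the 31 genes fell and 1 rose, where 14.5% of all tested probe sets fell and 11.3% rose. Every cop1-4 array lay under every wild type array for 5 of the 31, where 25.7% of all tested probe sets had this. The full order of HSP22 and COR47 over all 9 arrays was found in 0 of the 31, where 1.12% of all had it, so a list of this size need not hold any. These counts describe the measured genes and were not tested against the rest.

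The median log2 difference of the 31 genes between cop1-4 and wild type was 0.18, against −0.11 over all tested probe sets, and it was −0.20 in replicate 1 and 0.46 in replicates 2 and 3. The count of calls differed between fits. With the replicate number as a block, 7 of the 31 rose and 5 fell, where 3173 of the 15922 tested probe sets rose and 3923 fell. AT2G19310, Hop1, AT5G07340, AT1G54410, COR27 and AT4G33980 rose with the block and were not called without it. BZIP60 and the chaperone list gene AT5G48570 fell with the block and were not called without it. With arrays scaled to a common median 5 of the 31 rose and 3 fell. Without cop1-4 replicate 2, or without wild type replicate 1 or 3, there were 2 calls, and without cop1-4 replicate 1 there were 9. In these fits, in the same order, 2222, 2498, 2265 and 5657 of all 15922 tested probe sets were called, against 4100 with every array. Over all probe sets scaling to a common median gave 2294 that rose and 1733 that fell, against 1795 and 2305 without it. Between cop1-4 BBX22-GFPox and cop1-4, limma called 0 of the 31 genes, and their median log2 difference was 0.11 against −0.00 over all. An unadjusted limma p under 0.05 was found for 3 of the 31, and for 1194 of the 15922 tested probe sets. Every cop1-4 BBX22-GFPox array lay under every cop1-4 array for 2 of the 31, near the 4.99% of all. In cop1-4 BBX22-GFPox against wild type 1 rose and 2 fell, where 9.8% of all tested probe sets rose and 11.7% fell.

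In cop1-4 against wild type 14.5% of all tested probe sets fell and 11.3% rose. The 8 other tested small heat shock protein genes went both ways in cop1-4. One rose, one fell and 6 were not called, with a median log2 difference of 0.47 that was −0.57 in replicate 1 and 0.42 in replicates 2 and 3. The gene that fell was AT5G37670, with signals of 142.5, 95.5 and 103 in cop1-4 BBX22-GFPox, 44.5, 48.1 and 45.2 in cop1-4 and 342.9, 269.9 and 226.2 in wild type. It was lowest in cop1-4 on all 3 arrays, with no overlap between genotypes. Its fall in cop1-4 against wild type (log2 difference −2.09, limma adjusted p = 0.000745) was called in all 18 alternatives. Unlike HSP22, it was higher on every cop1-4 BBX22-GFPox array than on any cop1-4 array, though the log2 difference of 0.96 was not called (limma adjusted p = 0.156), and it remained lower than in wild type (−1.14, limma adjusted p = 0.00778).

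AT4G21870, of the same list, had the opposite direction. Its signals were 3640.8, 4110.4 and 4674.2 in cop1-4 BBX22-GFPox, 4783.4, 2221.5 and 2444.5 in cop1-4 and 446.1, 691.9 and 1010.7 in wild type. It rose in cop1-4 against wild type (log2 difference 2.09, limma adjusted p = 0.00539) and in cop1-4 BBX22-GFPox against wild type (2.56, limma adjusted p = 0.00264), in all 19 alternatives. The first of these differences was 3.35 in replicate 1 and 1.45 in replicates 2 and 3. Its arrays of cop1-4 BBX22-GFPox and of cop1-4 overlapped (0.47, limma adjusted p = 0.973).

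Of 9 chaperones and co-chaperones outside the small heat shock family, 1 fell in cop1-4 and 8 were not called (median −0.04, −0.95 in replicate 1 and 0.46 in replicates 2 and 3). Among all tested probe sets 14.5% fell. The gene called was Hop3 (AT4G12400), for a co-chaperone that links HSP70 to HSP90. Hop3 had signals of 95, 149 and 96.6 in cop1-4 BBX22-GFPox, 75.6, 68.6 and 94.8 in cop1-4 and 243.7, 148.1 and 146.9 in wild type. It fell in cop1-4 against wild type by 0.95 on the log2 scale (−1.42 in replicate 1 and −0.71 in replicates 2 and 3; limma adjusted p = 0.0272). The call depended on 4 arrays, cop1-4 replicate 2 and each wild type array, without which the adjusted p was up to 0.0923. In cop1-4 BBX22-GFPox against cop1-4, Hop3 stood at 0.39, the other direction from HSP22, and was not called.

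HSP22 works in the endoplasmic reticulum. In cop1-4 against wild type 14.5% of all tested probe sets fell. Of 6 tested folding genes of the endoplasmic reticulum 1 fell in cop1-4 and 5 were not called (median −0.12, −0.53 in replicate 1 and 0.08 in replicates 2 and 3). BZIP28 (AT3G10800), a membrane-bound transcription factor released to the nucleus when unfolded proteins gather there, was the gene called. Its signals were 754.6, 580.4 and 438.6 in cop1-4 BBX22-GFPox, 560, 516.3 and 475.6 in cop1-4 and 1112.6, 959.1 and 1002.3 in wild type. BZIP28 fell in cop1-4 against wild type by 0.95 on the log2 scale (limma adjusted p = 0.0162), in replicate 1 as in replicates 2 and 3. Its call was lost without either of cop1-4 replicates 2 and 3 or without either of wild type replicates 1 and 3, with an adjusted p of up to 0.0553. In cop1-4 BBX22-GFPox it was close to its cop1-4 level (0.16) and lower than in wild type (−0.80, limma adjusted p = 0.0344). That last call depended on each of 7 arrays, reached an adjusted p of 0.12 when one of them was left out, and was lost with median scaling.

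Of the 4 tested dehydrin genes beside COR47, limma called 0 in each of the 3 comparisons, a count too small to read against the 14.5% of all tested probe sets that fell in cop1-4. In cop1-4 against wild type 0 of the 4 had a negative difference (median 0.30, or 0.11 within replicate 1 and 0.37 over replicates 2 and 3). In cop1-4 BBX22-GFPox against cop1-4 2 of the 4 had one. The largest difference was that of AT1G54410, the small dehydrin HIRD11. Its signals were 9795.3, 11317.1 and 12480.4 in cop1-4 BBX22-GFPox, 12978.2, 14028.6 and 12883 in cop1-4 and 7033.7, 9530.7 and 9746.2 in wild type. All cop1-4 arrays were thus higher than all wild type arrays, where those of COR47 were lower. The log2 difference between cop1-4 and wild type was 0.61 (limma adjusted p = 0.0638, and 0.0218 with the replicate number as a block). In cop1-4 BBX22-GFPox every array of AT1G54410 lay under every cop1-4 array, as for COR47, at a difference of −0.25 that was not called (limma adjusted p = 0.991).

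The 4 tested cold response genes were all higher in cop1-4 than in wild type in their mean, and limma called 0. Their median log2 difference was 1.20, or 1.39 within replicate 1 and 1.10 over replicates 2 and 3. Within replicate 1 the genes were split. There COR27 (3.67) and AT4G33980 (2.79) were higher in cop1-4, while STZ (−0.11) and COR15B (−0.01) were not. Over replicates 2 and 3 all were higher, by 1.30, 0.77, 0.90 and 1.43 in this order. With the replicate number as a block 2 of the 4 were called, COR27 and AT4G33980 (limma adjusted p = 0.0167, and 0.296 without the block). In that fit 3173 of the 15922 tested probe sets rose. COR27 (AT5G42900), a cold-induced gene that also takes part in the circadian clock, had the largest difference. Its signals were 5744.7, 693.5 and 744.5 in cop1-4 BBX22-GFPox, 6807.5, 539.4 and 549 in cop1-4 and 512.5, 214.7 and 199.9 in wild type. The replicate 1 arrays were the highest of each genotype, by 2.59 on the log2 scale over the genotypes. The difference between cop1-4 and wild type was 2.09 (limma adjusted p = 0.187, and 0.00552 with the replicate number as a block), or 3.67 in replicate 1 and 1.30 in replicates 2 and 3. COR47, itself named for its response to cold, was at −1.03 and −0.95 in the same arrays.

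**Figure D3:**
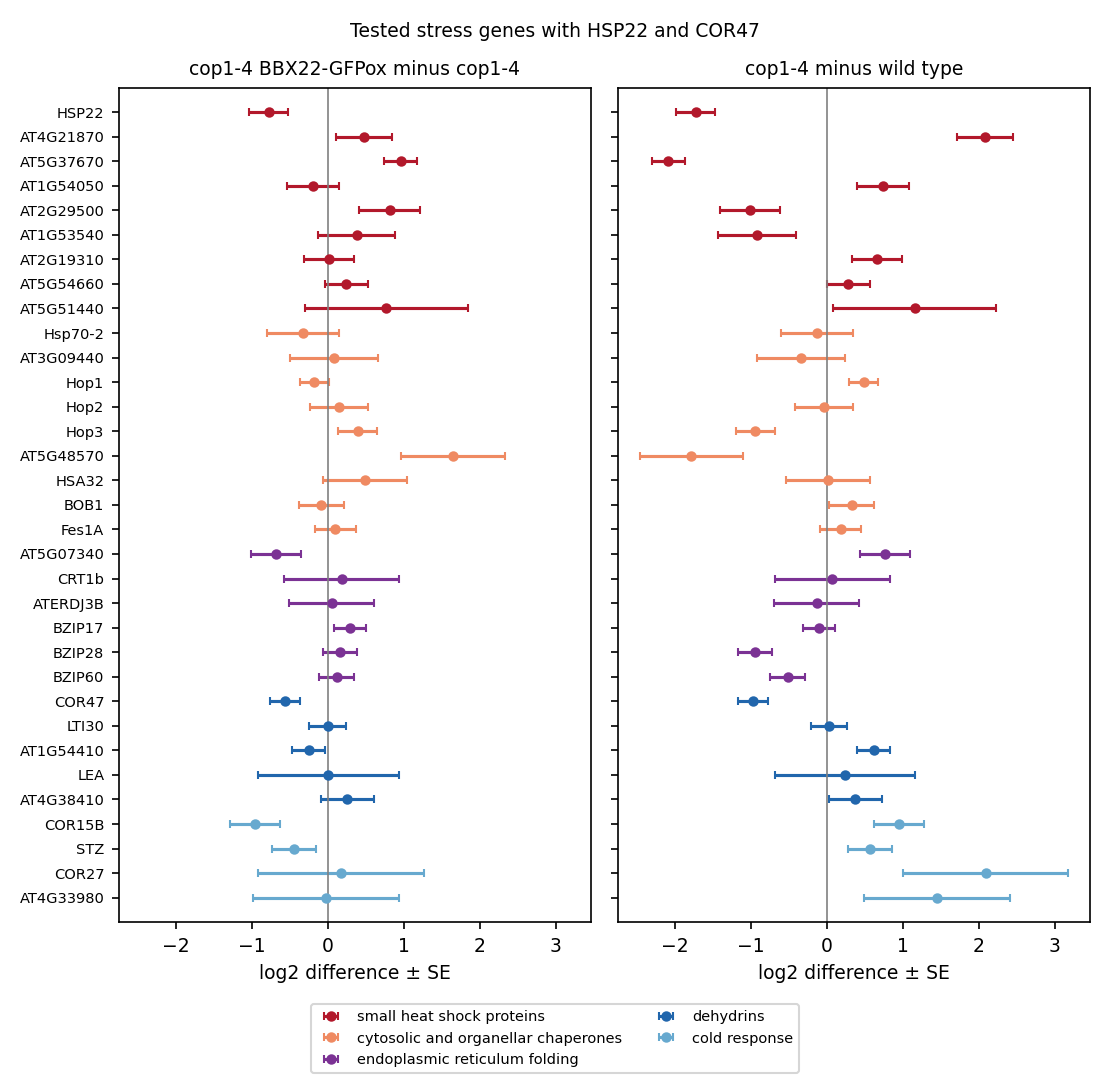
Log2 difference with its standard error (horizontal axis) of HSP22, COR47 and the 31 other tested stress genes, coloured by list, for cop1-4 BBX22-GFPox minus cop1-4 (left) and cop1-4 minus wild type (right). HSP22 (−0.78 and −1.73) and COR47 (−0.56 and −0.98) lie left of 0 in both panels, while AT5G37670 lies right of 0 in the left panel (0.96) and left of 0 in the right one (−2.09).

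Of the measured genes nearest to HSP22 and COR47 along the chromosomes, 1 rose in cop1-4 against wild type and 3 were not called. Among all tested probe sets 11.3% rose. The order of genes was read from the TAIR10.1 assembly, and for each gene the nearest tested probe set on either side was taken. The gene directly beside COR47, AT1G20430, had signals of 589.2, 647.4 and 731.9 in cop1-4 BBX22-GFPox, 947.5, 1065.5 and 836.9 in cop1-4 and 342.5, 404.7 and 281 in wild type. It rose in cop1-4 against wild type (log2 difference 1.42, limma adjusted p = 0.00233), where COR47 was lower. In cop1-4 BBX22-GFPox it was lower on every array than in cop1-4, like COR47, by a difference that was not called (−0.52, limma adjusted p = 0.572). On the other side of COR47 lies ERD10, another acidic dehydrin gene, for which no probe set was named here. Beyond it and 5 more genes, AT1G20490 had signals of 50.7, 63.2 and 50.5 in cop1-4 BBX22-GFPox, 86.9, 81.6 and 73.6 in cop1-4 and 92.4, 96.6 and 148.7 in wild type. No genotypes overlapped, in the order also seen for COR47. AT1G20490 stood at −0.36 in cop1-4 against wild type (limma adjusted p = 0.253) and at −0.41 in cop1-4 BBX22-GFPox against cop1-4 (0.809). It fell in cop1-4 BBX22-GFPox against wild type (−0.77, limma adjusted p = 0.0369). Near HSP22, AT4G10270 (3 genes between) and AT4G10170 (8 genes between) stood at 0.35 and −0.40 in cop1-4 against wild type (limma adjusted p = 0.67 and 0.596), and the arrays of their genotypes overlapped in all 3 comparisons.

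Across all 8568 other tested genes, the profile of HSP22 over the 9 arrays was among the closest to that of COR47. Likeness was measured as Pearson's r of the log2 values over the 9 arrays, which fall into their 3 genotypes, so that r mostly reflects the genotype means, and it is given as a description. HSP22 and COR47 correlated at 0.984, the third highest r for either of them. They had both been selected for being lower in cop1-4 than in wild type, which favours a high r. Closest to HSP22 were AT4G28770 (0.987), AT2G22660 (0.984), COR47 and AT1G27210 (0.982). Closest to COR47 were AT3G56050 (0.987), IQD28 (AT1G14380, an IQ-domain protein gene, 0.986), HSP22 and AT3G16850 (0.981).

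These 6 further genes had the same order of genotype means, and in 5 of them no 2 genotypes overlapped. Their choice by a high r with HSP22 or COR47 favours this order. Without overlap it was found in 1.12% of all tested probe sets. AT4G28770, the nearest to HSP22, had signals of 1588, 1554.1 and 1183.5 in cop1-4 BBX22-GFPox, 1771.1, 1935.7 and 1800.3 in cop1-4 and 3534, 3370.3 and 4094.2 in wild type. AT3G56050, the nearest to COR47, had 979.3, 766.6 and 775.9 in cop1-4 BBX22-GFPox, 1166.1, 1131.2 and 1094 in cop1-4 and 2262.4, 1747.6 and 1802.9 in wild type. The exception was AT1G27210, with 341.6, 245.7 and 231.7 in cop1-4 BBX22-GFPox and 331.4, 320.7 and 334.2 in cop1-4, which overlapped, against 983.3, 912 and 962.5 in wild type. The log2 differences between cop1-4 and wild type of the 6 genes ran from −1.47 for AT1G27210 to −0.75 for IQD28, while HSP22 stood at −1.73. Those between cop1-4 BBX22-GFPox and cop1-4 ran from −0.54 for AT3G16850 to −0.27 for AT1G27210, beside −0.56 for COR47 and −0.78 for HSP22. The place of HSP22 among them depends on the offset, since it stood at −0.32 with the larger one. The differences between genes were not tested.

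**Figure D4:**
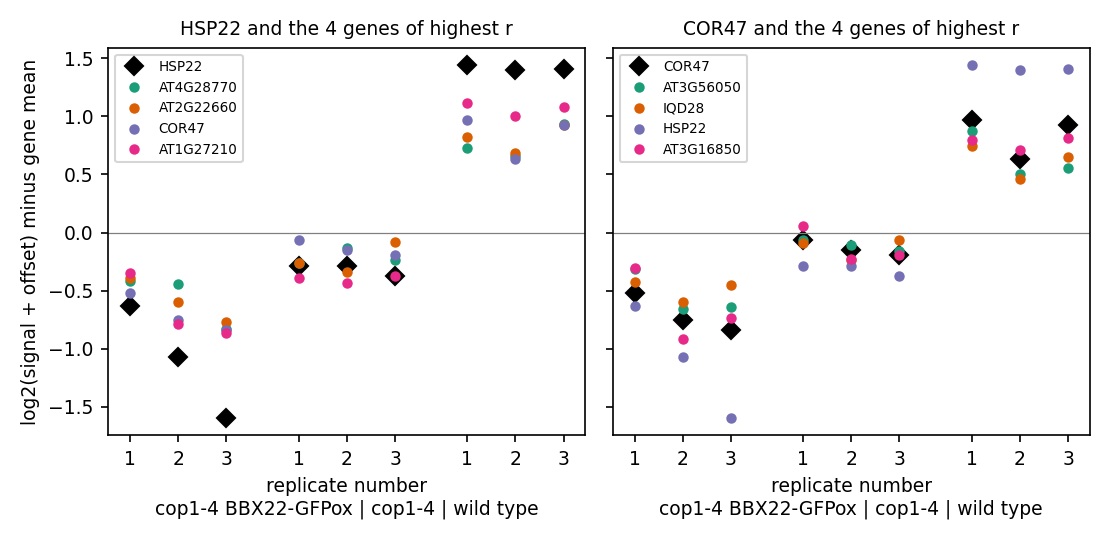
Log2(signal + offset) minus the mean of each gene over the 9 arrays (vertical axis) by genotype and replicate number, for HSP22 (left, black diamonds) and COR47 (right, black diamonds) with the 4 genes of highest r (coloured circles). All genes shown lie highest in wild type and, apart from AT1G27210 in replicate 1, lowest in cop1-4 BBX22-GFPox; HSP22 has the widest range.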

How the data were processed

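Per the submitters' processing notes, MAS5 gave the values of the deposited table, which holds 1 linear intensity per probe set and array. The labels' protocols give 10 ug of total RNA per sample and biotin labelling. The MAS5 version, its detection calls and any scan date were not found in these sources, and the number of arrays limits the precision. Of 22746 probe sets, 13513 were paired with 1 gene and 503 with several in the platform annotation, and 13436 matched a gene table of TAIR10.1, used for names and gene order. A gene with no probe set named is unnamed here, and some genes are not reported here.

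Signals were taken as log2(signal + 24.5). Probe sets with a mean log2 value at the 30th percentile or above were kept (15922), so HSP22 (mean near the limit) and COR47 both passed. A model with 1 mean per genotype was fitted over all 9 arrays with limma 3.58.1 in R 4.3.3 (lmFit, eBayes with trend) and tested on both sides; p-values were adjusted by Benjamini-Hochberg per comparison. It was tested on simulated data with independent noise on each array, for known changes between cop1-4 and wild type. These data held no shared shift of replicate 1 and no change between cop1-4 BBX22-GFPox and cop1-4, so the test does not cover those. Of several probe sets for a gene the brightest was used.

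HSP22, COR47 and the gene lists were chosen with earlier results of these data known. Beside the members, the text names up to 3 called genes per direction of each stress list, or the gene of largest difference where none was called, the nearest tested gene on either side of each member, and the 4 genes of highest r. Stress genes called with the replicate block but not without it are named too. ERD10, PORB and OLEO3 were named after their place or values were seen.

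The labels number the replicates 1 to 3 and call them biological, without describing their sowing, so the p-values reflect the spread of these samples, which may be technical. No 2 arrays were identical. Deviations from genotype means correlated at 0.375 to 0.806 in all 9 pairs of same-numbered arrays, which meets the limit of 0.1 set for pairing. Replicates 2 and 3 of different genotypes correlated at 0.337 to 0.739 too, so the numbers set replicate 1 apart and do not tell 2 from 3. P-values are from the fit without the replicate number, and those with it as a block are named as such. The fit without it leaves the shift of replicate 1 in its spread. Between cop1-4 and wild type it called 4100 probe sets, against 7910 with replicate 1 as a batch term. A gene not called here can thus be one that is called with that term. Alternatives were quantile normalization, median scaling, other offsets and filters, a replicate block, replicate 1 as a batch term, replicates 2 and 3 alone, array weights and leaving out each array.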

Additional observations from a re-analysis of the deposited data

How the results depend on the processing

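HSP22 and COR47 kept a negative difference in all 3 comparisons under every alternative that gave a value, 18 for HSP22 and 19 for COR47. HSP22 was too dim to be tested with the filter at the 50th percentile. Between cop1-4 and wild type, HSP22 moved to −1.10 with the larger offset and −2.18 with none, and COR47 to −1.19 with quantile normalization. In cop1-4 BBX22-GFPox against wild type, HSP22 moved to −1.41 and −3.91 with the same offsets. Between cop1-4 BBX22-GFPox and cop1-4 both genes became called with array weights (HSP22 −0.94, limma adjusted p = 0.00436; COR47 −0.61, 0.00567) and over replicates 2 and 3 only (−1.0, 0.0109; −0.62, 0.0052). In all these fits HSP22 was compared on dim signals, under the filter's limit in both genotypes. The replicate block changed neither call (HSP22 −0.78, limma adjusted p = 0.207, and COR47 −0.56, limma adjusted p = 0.176). Nor did replicate 1 as a batch term (HSP22 −0.78, limma adjusted p = 0.132, and COR47 −0.56, limma adjusted p = 0.0884). Leaving out an array gave −1.01 to −0.53 for HSP22 and −0.66 to −0.50 for COR47, with no call.

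Of 31 stress genes, limma called 4 between cop1-4 and wild type, but 17 with array weights, 2 with the filter at the 50th percentile (19 tested), 8 with median scaling, 15 with replicate 1 as a batch term, 12 with the replicate block, 23 over replicates 2 and 3 only, and 2 (without cop1-4 replicate 2 or wild type replicate 1 or 3) to 9 (without cop1-4 replicate 1) leaving out an array. Between cop1-4 BBX22-GFPox and cop1-4 the 0 calls became 7 with array weights, 1 with the batch term, 8 over replicates 2 and 3 only and 0 to 1 leaving out an array. In cop1-4 BBX22-GFPox against wild type the 3 calls became 15 with array weights, 7 with the batch term, 6 with the replicate block and 17 over replicates 2 and 3 only. Of all probe sets, in the first comparison 4100 calls became 9776 with array weights, 7910 with the batch term, 7096 with the replicate block, 9976 over replicates 2 and 3 only and 2222 (without cop1-4 replicate 2) to 5657. In the second, 48 became 3510, 432, 206 and 3867 in the same order, 27 with the stricter filter and 11 (without cop1-4 BBX22-GFPox replicate 2) to 378 (without cop1-4 replicate 1). In the last, 3427 became 9389, 7250, 6479 and 9606, and 1818 (without cop1-4 BBX22-GFPox replicate 3) to 4840. The causes were not tested.

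The 3 arrays per genotype limit the precision, and the signals of HSP22 in cop1-4 BBX22-GFPox lie under the 20th percentile of all values in replicates 2 and 3, where the log2 difference depends on the offset.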
